A study of Mus musculus with 6 samples.

Results

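Genes of the constitutive proteasome were followed in C2C12 myotubes in which the microRNA miR-382-5p was silenced, against myotubes given a control oligonucleotide. Members were all genes whose symbol in the platform annotation begins with Psma, Psmb, Psmc or Psmd and a digit, leaving out the interferon-inducible subunits Psmb8, Psmb9 and Psmb10. This gave 36 of the 18820 genes that the annotation names with a row of their own, where a row is one probe set. Of these, 13 encode the core particle and 17 the regulatory particle. The other 6 are the regulatory particle assembly chaperones Psmd5, Psmd9 and Psmd10, the tissue-restricted core subunits Psma8 and Psmb11, and Psmc3ip. The last is a meiotic recombination factor that is not a proteasome subunit and meets the rule by the start of its symbol. The alpha subunit gene Psma4 is named only in a row that it shares with another gene and was not analysed here.

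The silenced group held 3 arrays of C2C12 cells given a locked nucleic acid (LNA) oligonucleotide that inhibits miR-382-5p; 3 arrays of cells given an LNA negative control (negative control A) made up the control group. C2C12 is an immortalized mouse myoblast line, and all cells had been differentiated in 2% horse serum, transfected at 50 nM on day 6 and harvested 24 h later on day 7. Because every sample derives from a single established line and no label states that replicates were separate cultures, p-values measure only how these samples varied, and that variation may be technical. Values are log2 expression levels by RMA, one Affymetrix whole-transcript array per sample, and the number of arrays limits their precision. The arrays' medians lay between 4.21 and 4.27 and their pairwise correlations between 0.985 and 0.995.

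All 8 myotube markers examined lay above the filter described below, with mean levels between 9.22 and 12.2. The 3 adipocyte and 2 endothelial markers lay below it, as did the leukocyte marker Ptprc and the macrophage marker Adgre1, whereas Cd68 averaged 5.30 in silenced and 4.93 in control arrays. Markers of undifferentiated myoblasts were also present (4 of 4 above the filter), as were 2 of 3 fibroblast markers. Summed over the 8 markers, the myotube list's log2 level was 89.1 to 90.4 in silenced and 88.4 to 88.8 in control arrays. This sum did not overlap between the groups, and its part in the results below was not tested. The list was not uniform: Myh3, Myh1, Des and Mymk were higher in silenced arrays without overlap. Ckm, Acta1, Tnnt3 and Myog overlapped, and Myog had a lower silenced mean (-0.040). Of the myoblast markers, Pax7 was higher without overlap (0.22). Myf5 (-0.21), Cdk1 (0.000060) and Mki67 (-0.090) overlapped. In a culture that holds fused and unfused cells, a change in the cells' proportions and a change in RNA per cell cannot be told apart.

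The proteasome is the protease that degrades proteins tagged with ubiquitin. Its core particle is a barrel of alpha rings, which gate the entry, around beta rings, of which the subunits Psmb5, Psmb6 and Psmb7 cut proteins. The regulatory particle caps the barrel: its lid and its other non-ATPase subunits bind and deubiquitinate substrates, and its ring of ATPases unfolds them and feeds them into the core. In muscle this pathway degrades myofibrillar proteins and is known for its role in atrophy. Cells raise the transcription of proteasome subunits when activity is short, largely through the transcription factor Nfe2l1, which acts at antioxidant response elements. Subunits of one complex are needed in fixed proportions.

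The inhibited microRNA is shown first, because it is the only molecule the treatment was designed to act on. Capitals mark its seed, bases 2 to 8, and the sequence is RefSeq's for mouse build GRCm38.p6, chr12:109733781-109733802, forward strand.
miR-382-5p: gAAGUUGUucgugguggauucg

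Promoter sequences from RefSeq (GRCm38.p6, 250 bases before to 50 after each annotated start) were matched by gene identifier and covered 29 of the 36 members with 31 promoters. The antioxidant response element core, TGACNNNGC on either strand, occurred in 5 of these 31 promoters (16.1%), against 12.4% of all 32851 mouse promoters in the table. A CCAAT box, CCAAT on either strand, occurred in 13 (41.9%, against 37.4% of all). The core of sites bound by ETS-family factors, CGGAAG on either strand, occurred in 19 (61.3%, against 16.9% of all). Base composition differed too, with a median GC content of 56.7% in members' promoters and 52.7% in all promoters. The 7 motifs searched were chosen with the promoters in view. The 4 others occurred in 0 to 7 of the 31 promoters: GGAAGTG, which overlaps the ETS core, in 7 (3615 of all 32851 promoters hold it), GATTGGC, which overlaps the CCAAT box, in 4 (6.83% of all), ACTACAA in 2 (3.24% of all) and TGACTCAGC, a case of the antioxidant response element core, in 0 (0.454% of all). These matches describe letters in a window and were not tested against expression.

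The antioxidant response element matches are shown because this element is the known common control point of proteasome genes. Matches to its core were little more frequent in members' promoters than in all promoters (16.1% against 12.4%). Whether any match shown is a working element was not tested. Each line gives 30 bases before the start on the gene's strand, with the match in capitals, and 2 of the 5 belong to genes of catalytic subunits, Psmb5 and Psmb6.
Psmb5, chr14:54618023-54618052, reverse strand: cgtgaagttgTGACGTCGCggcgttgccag
Psmb6, chr11:70525327-70525356, forward strand: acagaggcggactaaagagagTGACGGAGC
Psmc6, chr14:45329587-45329616, forward strand: ccagccagtaGCTAAGTCAggcattgctca
Psmd9, chr5:123228149-123228178, forward strand: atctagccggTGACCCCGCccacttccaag
Psmd12, chr11:107479278-107479307, forward strand: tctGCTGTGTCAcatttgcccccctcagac

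The ETS core matches of 4 members described below are shown because silenced and control values of these genes did not overlap. For Psmc1 and Psmc2 the nearest match before a start is given, and CTTCCG is the same core read on the other strand. Psmc2 holds 3 matches over its 2 promoters, not all of them wholly before a start. Of the other 3 genes without overlap, Psmc4, the only one higher in silenced arrays, has 2 matches, both after the annotated start, and only stretches before a start are printed. Psma5 and Psmd10 have 0. The core is common among members, in 18 of the 29 with a promoter, and no link between it and the differences was tested.
Psmb3, chr11:97703239-97703268, forward strand: ggaccgtaggctCTTCCGcactcacagtga
Psmc1, chr12:100110162-100110191, forward strand: ttggtggatgcaCTTCCGgcggtggcgatt
Psmc2, chr5:21786711-21786740, forward strand: ggcgcggagctaCTTCCGgtggggaagaga
Psmc6, chr14:45329713-45329742, forward strand: aggcgggccagcCGGAAGgggcggagccag

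Testing was limited to genes whose mean log2 level exceeded 3.87, the 40th percentile, which kept 34 of the 36 members among 11292 genes. Psma8 and Psmb11, which are known for testis and thymus, lay below this level. Psma8 read 2.46, 2.64 and 2.62 in silenced arrays against 2.53, 2.64 and 2.19 in control arrays. Psmb11 read 2.93, 3.04 and 2.90 in silenced arrays against 2.72, 2.86 and 2.84 in control arrays. Both are near the dim end of the arrays and are not described further. The levels of different genes come from different probes and are not set against each other.

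Most core genes had a slightly lower mean level in silenced arrays, whereas regulatory particle genes lay on both sides of 0. Of 13 core genes, 12 had a lower mean and 1 a higher mean after silencing, and their median difference (silenced minus control) was -0.081 log2. Of 17 regulatory particle genes, 10 had a lower mean and 7 a higher one, and their median difference was -0.022. The 6 ATPase genes among them had a median of -0.104, lower than that of the core. The 3 base genes that are not ATPases had a median of 0.070 and the 8 lid genes -0.021. Over all tested genes 47.3% had a lower mean and the median difference was 0.0089, and among genes above the 60th percentile 46.8% had a lower mean. No member passed limma with Benjamini-Hochberg adjustment over all tested genes (0 of 34, smallest adjusted p = 0.871), and neither did any other gene (0%). At an unadjusted p under 0.05 there were 0 members, where limma called 1.97% of all tested genes as lower and 2.83% as higher. When replicate numbers were fitted as a block these shares were 4.57% and 5.77%, and 1 of the 34 members, Psma5, was lower at that level (limma adjusted p = 0.471).

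**Figure D1:**
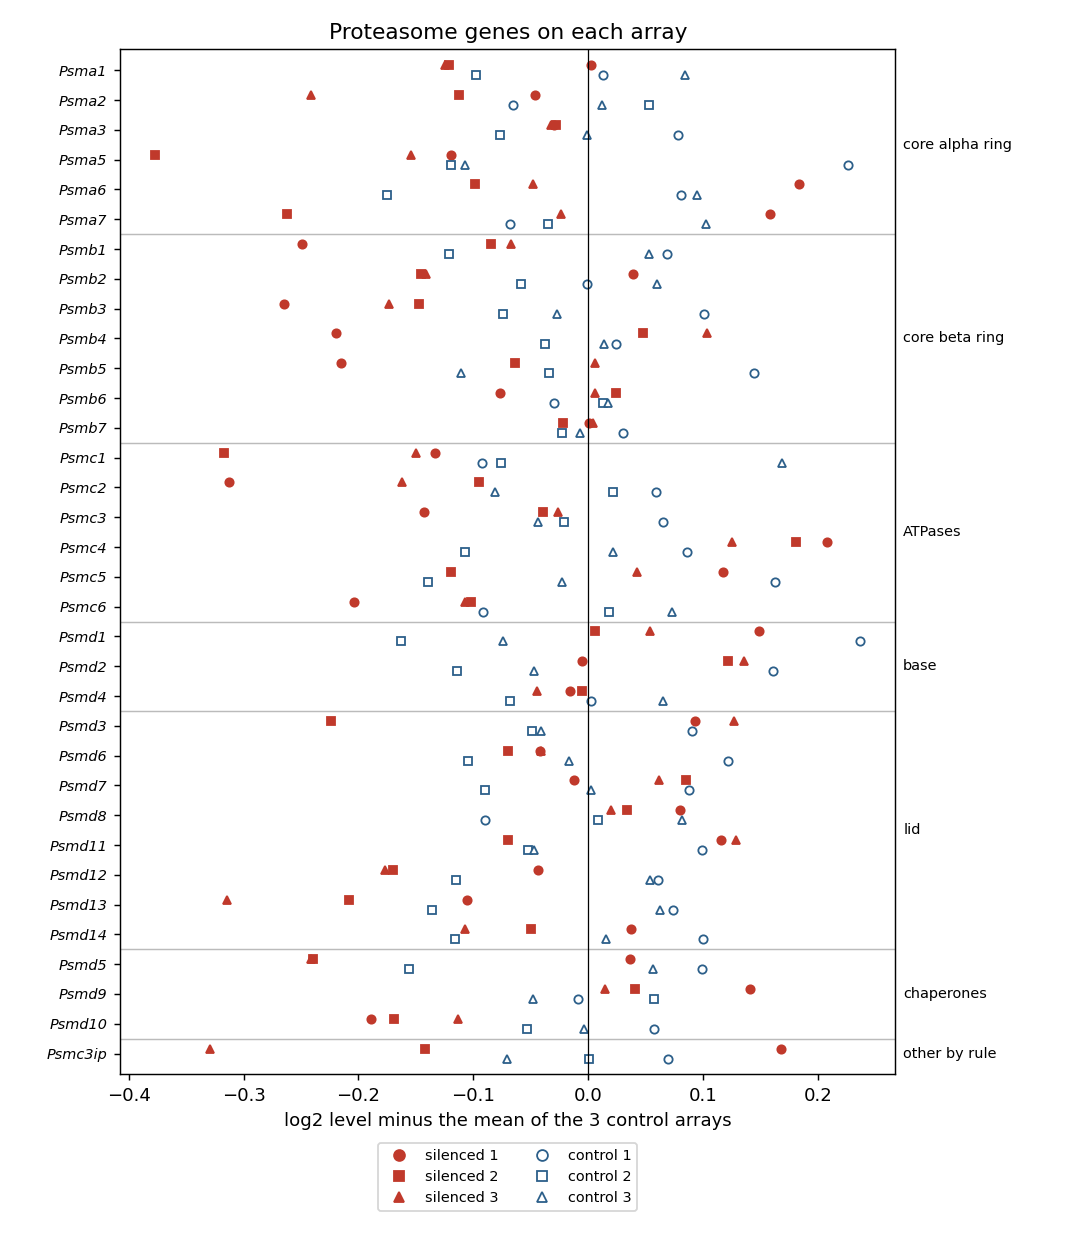
Log2 level of each of the 34 tested members on each of the 6 arrays, minus the mean of its 3 control arrays, with filled symbols for silenced and open symbols for control arrays, and shapes for the replicate number. Of the 13 core genes, 12 have a lower silenced mean, and control replicate 1 is the highest array for 18 of the 34 members.

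In 6 members all 3 silenced values lay below all 3 control values, and in 1 they lay above. Among all tested genes 4.87% lay below and 6.94% above in this way. The 6 were Psma5 and Psmb3 of the core, the ATPases Psmc1, Psmc2 and Psmc6, and the chaperone gene Psmd10. The ATPase gene Psmc4 was the 1 that lay above. Within same-numbered pairs of arrays, 10 members were lower in silenced arrays in all 3 pairs and 1 was higher in all 3, where 15.8% of all tested genes were lower and 19.7% higher.

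The alpha ring was measured by 6 genes, with differences from -0.22 to 0.01 and a median of -0.062. Psma5, an alpha ring subunit, read 8.85, 8.60 and 8.82 in silenced arrays against 9.20, 8.85 and 8.87 in control arrays. The groups were all but tied, at 8.8531 for the highest silenced and 8.8534 for the lowest control array. Control replicate 1 stood above the other 5 arrays. The difference was -0.22 ± 0.12 (SE), or 1.16-fold lower (limma adjusted p = 0.871). Without control replicate 1 it was -0.10, and without silenced replicate 2 it was -0.14. A second row of Psma5 differed by -0.095 with overlapping groups. Psma3, Psma5, Psmb1, Psmb3, Psmc1 and Psmd2 each have more than 1 row, and whether a row also reads a near-identical copy of its gene, such as a processed pseudogene, was not tested, so their levels and differences are uncertain. Psma2 and Psma1 differed by -0.13 ± 0.09 (SE) and -0.081 ± 0.086 (SE), and Psma3 and Psma7 by -0.030 ± 0.077 (SE) and -0.042 ± 0.120 (SE). Psma6 was the only core gene with a higher mean, by 0.013 ± 0.115 (SE). The 3 silenced values of Psma7 spread widely, with 9.87, 9.45 and 9.69 against 9.64, 9.67 and 9.81 in control arrays.

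All 7 genes of the beta ring had a lower mean in silenced arrays, with differences from -0.20 to -0.0057 and a median of -0.082. Psmb3, a noncatalytic beta subunit, had the smallest unadjusted p of all members in limma (0.0522). It read 9.52, 9.64 and 9.61 in silenced arrays against 9.88, 9.71 and 9.76 in control arrays, without overlap. The difference was -0.20 ± 0.08 (SE), with a 95% confidence interval of -0.39 to 0.0024 (limma adjusted p = 0.871). A second row of Psmb3 differed by -0.12 with overlapping groups. Of the other noncatalytic subunits, Psmb1 differed by -0.13 ± 0.09 (SE), or -0.0037 on a second row, Psmb2 by -0.082 ± 0.087 (SE) and Psmb4 by -0.023 ± 0.103 (SE). Psmb4 was low in silenced replicate 1 (8.66), while silenced replicates 2 and 3 read 8.93 and 8.98 and the control arrays 8.90, 8.84 and 8.89.

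The catalytic subunits were those of the beta ring with the closest group means, apart from Psmb5. Psmb7, which carries the trypsin-like activity, read 10.58, 10.56 and 10.58 in silenced arrays against 10.61, 10.56 and 10.57 in control arrays. All 6 of its values lay within a narrow band, and the difference was -0.0057, with a 95% confidence interval of -0.17 to 0.16. Psmb6, which carries the caspase-like activity, read 10.85, 10.95 and 10.93 in silenced arrays against 10.90, 10.94 and 10.94 in control arrays. Its difference was -0.015, with an interval of -0.19 to 0.16, and its sign turned without silenced replicate 1 (0.015) and after repeated quantile normalization (0.0090). For Psmb7 the sign turned after that normalization (0.0012), without control replicate 1 (0.0096) and without silenced replicate 2 (0.0024). Psmb5, the chymotrypsin-like subunit, read 8.45, 8.60 and 8.67 in silenced arrays against 8.81, 8.63 and 8.56 in control arrays. Its groups overlapped, and its difference was -0.091 ± 0.102 (SE). Within replicate number 1 the difference was -0.36, within number 2 -0.030 and within number 3 0.12. It was -0.019 without control replicate 1, -0.029 without silenced replicate 1, -0.14 without silenced replicate 3 and -0.15 without control replicate 3.

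The ring of ATPases held all 4 regulatory particle genes without overlap between groups, 3 below and 1 above. Over all tested genes 4.87% lay below and 6.94% above, and whether the ring differs from other classes was not tested. Psmc1 read 8.98, 8.80 and 8.96 in silenced arrays against 9.02, 9.04 and 9.28 in control arrays, a difference of -0.20 ± 0.10 (SE) or 1.15-fold lower. Control replicate 3 was the highest array for this gene, and without it the difference was -0.12. Psmc2 read 9.42, 9.63 and 9.57 in silenced arrays against 9.79, 9.75 and 9.65 in control arrays, a difference of -0.19 ± 0.09 (SE). The gap between its groups was small, at 9.63 for the highest silenced and 9.65 for the lowest control array. Psmc6 read 9.99, 10.09 and 10.08 in silenced arrays against 10.10, 10.21 and 10.26 in control arrays, a difference of -0.14 ± 0.08 (SE). It was lower in all 3 same-numbered pairs, by 0.11 to 0.18 in size.

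Psmc4 went the other way. It read 8.98, 8.96 and 8.90 in silenced arrays against 8.86, 8.67 and 8.80 in control arrays, and all silenced values lay above all control values. The difference was 0.17 ± 0.08 (SE), or 1.13-fold higher, with a 95% confidence interval of -0.025 to 0.37, and it was higher in all 3 same-numbered pairs. Psmc3 and Psmc5 differed by -0.069 ± 0.079 (SE) and 0.013 ± 0.109 (SE), and their groups overlapped. For Psmc1, Psmc2, Psmc4 and Psmc6 limma's adjusted p was 0.871.

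**Figure D2:**
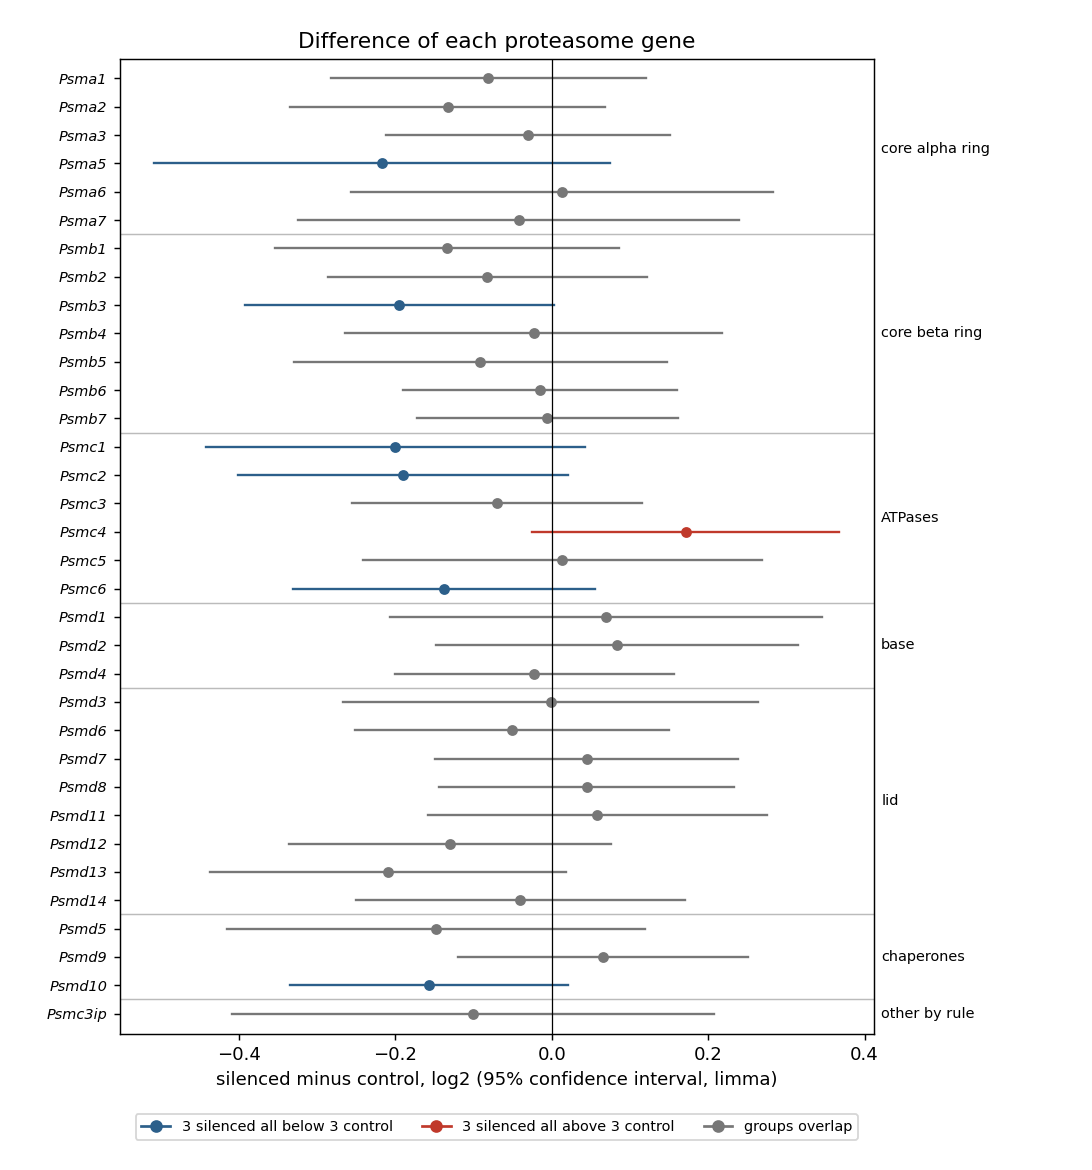
Difference of each tested member between silenced and control arrays in log2, with limma's 95% confidence interval, ordered by particle and class. Every interval includes 0, the 7 beta ring genes lie at or left of 0 with Psmb7 closest to it (-0.0057), and Psmc4 (0.17) is the farthest to the right.

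The base subunits that are not ATPases showed small differences. Psmd2, a scaffold that docks ubiquitin receptors, read 10.08, 10.21 and 10.22 in silenced arrays against 10.25, 9.97 and 10.04 in control arrays. Control replicate 1 was the highest array and the groups overlapped. The difference was 0.084 ± 0.099 (SE), with -0.17 within replicate number 1 and 0.24 and 0.18 within numbers 2 and 3. It was 0.16 without control replicate 1, 0.13 without silenced replicate 1 and 0.027 without control replicate 2, and a second row of Psmd2 differed by 0.046. Psmd1, the other large scaffold, differed by 0.070 ± 0.118 (SE) and was also highest in control replicate 1. Psmd4, a ubiquitin receptor, differed by -0.022 ± 0.076 (SE).

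The 8 lid genes had differences from -0.21 to 0.06, with a median of -0.021. Psmd13 read 8.77, 8.67 and 8.56 in silenced arrays against 8.95, 8.74 and 8.94 in control arrays. Its groups overlapped by 1 array, since silenced replicate 1 lay above control replicate 2, and the difference was -0.21 ± 0.10 (SE, limma adjusted p = 0.871). Psmd12 had a similar pattern at a smaller size, -0.13 ± 0.09 (SE), and both were lower in all 3 same-numbered pairs. Psmd14, the deubiquitinase of the lid, differed by -0.040 ± 0.090 (SE) and Psmd6 by -0.051 ± 0.086 (SE). Psmd11, Psmd7 and Psmd8 had higher means in silenced arrays, by 0.058 ± 0.092 (SE), 0.045 ± 0.083 (SE) and 0.045 ± 0.080 (SE). Psmd3 differed by -0.0015 ± 0.1134 (SE).

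Assembly chaperones of the regulatory particle are not part of the finished proteasome. Psmd10, also known as gankyrin, read 8.34, 8.36 and 8.41 in silenced arrays against 8.58, 8.47 and 8.52 in control arrays. The groups did not overlap, and the difference was -0.16 ± 0.08 (SE), or 1.12-fold lower (limma adjusted p = 0.871). Psmd5 differed by -0.15 ± 0.11 (SE) and was lower in all 3 same-numbered pairs, and Psmd9 differed by 0.065 ± 0.079 (SE). Psmc3ip, which is not a proteasome gene, read 5.98, 5.67 and 5.48 in silenced arrays against 5.88, 5.81 and 5.74 in control arrays, a difference of -0.10 ± 0.13 (SE) with overlapping groups. It was -0.24 without silenced replicate 1, -0.066 without control replicate 1 and 0.013 without silenced replicate 3.

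Per array, the mean level of the 13 core genes, each centred on its own mean over the 6 arrays, was -0.024, -0.067 and -0.028 in silenced arrays against 0.086, -0.021 and 0.054 in control arrays. The silenced arrays lay below the control arrays, but control replicate 2 lay close to silenced replicates 1 and 3. For the 17 regulatory particle genes the mean was 0.0039, -0.045 and -0.0090 in silenced arrays against 0.083, -0.060 and 0.027 in control arrays, and the groups overlapped. Control replicate 1 was the highest array in both particles and control replicate 2 the lowest in the regulatory particle. Control replicate 1 was the highest of the 6 arrays for 18 of the 34 members (52.9%), against 14.2% of all tested genes. Control replicate 2 was the lowest array for 11 members (32.4%, against 14.1% of all tested genes). Silenced replicate 1 was the lowest for 9 (26.5%, against 17.9%). Without control replicate 1 the median difference was -0.075 for the core and 0.0097 for the regulatory particle.

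The core mean minus the regulatory particle mean was -0.028, -0.022 and -0.019 in silenced arrays against 0.0029, 0.039 and 0.028 in control arrays. The groups did not overlap on this measure, and the average difference was -0.047 on the log2 scale, with an SD between replicates of 0.0046 in silenced and 0.0186 in control arrays (n = 3 each). It is given as a description with no test, because the members were chosen with results of these arrays known. By medians of the gene differences, the core minus the regulatory particle was -0.059. Within replicate numbers 1, 2 and 3 the means differed by -0.031, -0.062 and -0.047, all toward a lower core, while the medians differed by 0.041, -0.044 and -0.096, so that mean and median disagree in sign within number 1.

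**Figure D3:**
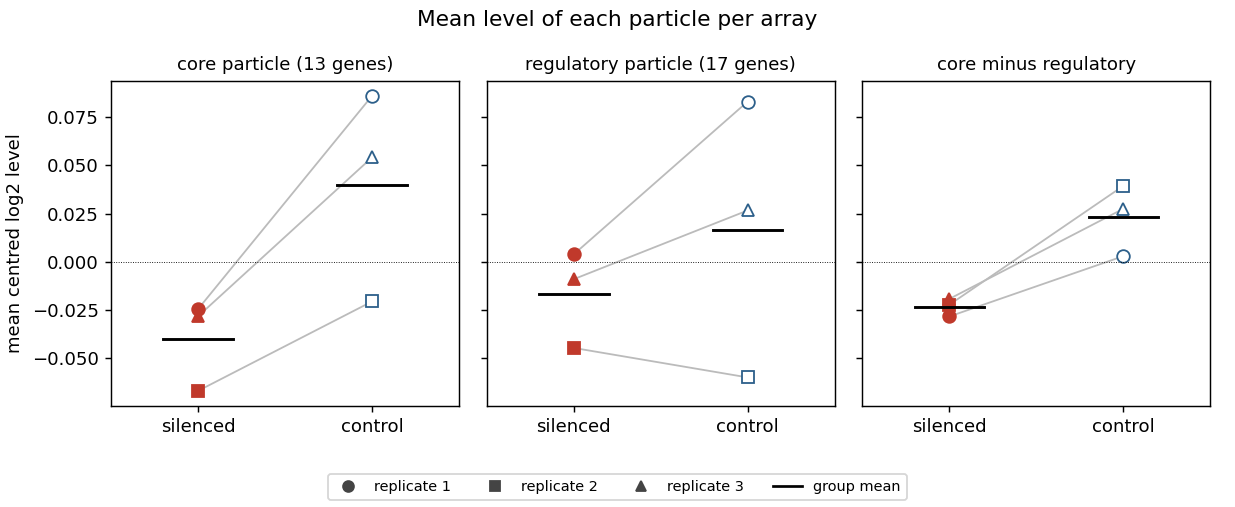
Mean centred log2 level per array of the 13 core genes, of the 17 regulatory particle genes, and of the core minus the regulatory particle, with grey lines joining same-numbered arrays and black bars for the mean of 3 arrays. Control replicate 1 is highest for both particles (0.086 and 0.083), and the core minus the regulatory particle is lower in silenced than in control arrays in each of the 3 pairs.

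Single arrays set the size of these medians. The core median was -0.039 without control replicate 3 and between -0.11 and -0.058 without any other single array. The regulatory particle median was -0.056 without control replicate 2, -0.038 without silenced replicate 1, -0.011 without silenced replicate 3 and 0.0097 without control replicate 1. The median of the core minus that of the regulatory particle was -0.017 without control replicate 3, -0.028 without silenced replicate 2 and -0.038 without silenced replicate 1. Within replicate number 2, 7 of the 13 core genes had a lower value in the silenced array, and without both arrays numbered 1 it was 8 of 13 in the mean.

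Genes that act with the proteasome were taken from a list of 42, of which 32 had a row of their own and 30 were tested. None passed limma over all genes (0 of 30). Of the 30 genes, 15 had a lower mean and 15 a higher one after silencing, and the median difference was 0.015. At an unadjusted p under 0.05 there was 1, a higher one, and when replicate numbers were fitted as a block there were 3 lower (Psme2, Pomp and Psmg2) and 2 higher (Ubqln1 and Ubqln4). Over all tested genes the shares were 1.97% lower and 2.83% higher without the block, and 4.57% lower and 5.77% higher with it. The 1 higher of 30 without the block and the 2 higher with it are near these shares. In 1 of the 30 genes all silenced values lay below all control values, and in 2 they lay above. Over all tested genes 4.87% lay below and 6.94% above, so these counts are near the shares too.

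Ubqln1, a shuttle that carries ubiquitinated proteins to the proteasome, was that gene. It read 8.66, 8.61 and 8.59 in silenced arrays against 8.44, 8.39 and 8.35 in control arrays. The groups were clearly apart, and the pairs differed by 0.23, 0.22 and 0.24. The difference was 0.23 ± 0.07 (SE), or 1.17-fold higher, with a 95% confidence interval of 0.054 to 0.40 (limma unadjusted p = 0.0171, adjusted p = 0.871). Its relative Ubqln4 differed by 0.20 ± 0.13 (SE) and was higher in all 3 pairs, with limma's unadjusted p at 0.185, and at 0.0465 when replicate numbers were fitted as a block (adjusted p = 0.477). Its difference was 0.066 without silenced replicate 1 and 0.13 without control replicate 3.

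Among genes for core assembly, 4 of 5 had a lower mean. Psmg2, a chaperone of the alpha ring, read 7.86, 7.49 and 7.59 in silenced arrays against 7.93, 7.84 and 7.90 in control arrays. Silenced replicate 1 lay just above control replicate 2, and the difference was -0.25 ± 0.11 (SE). Pomp, which builds the beta ring onto the alpha ring, read 9.44, 9.21 and 9.10 in silenced arrays against 9.62, 9.33 and 9.43 in control arrays, a difference of -0.21 ± 0.12 (SE) with overlapping groups. The difference of Pomp was -0.13 without control replicate 1 and -0.14 without silenced replicate 3. Both were lower in all 3 pairs, with limma's adjusted p at 0.871 and, with the block, 0.464 for Psmg2 and 0.471 for Pomp.

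Among alternative caps of the core, Psme2, an interferon-inducible subunit of the 11S activator, read 7.90, 7.94 and 7.91 in silenced arrays against 7.97, 8.28 and 8.16 in control arrays. The groups did not overlap, and the difference was -0.22 ± 0.10 (SE, limma adjusted p = 0.871). Its partner Psme1 differed by -0.0042 ± 0.1139 (SE). Psmf1, which inhibits the core, read 7.62, 7.64 and 7.66 in silenced arrays against 7.61, 7.53 and 7.36 in control arrays. Its silenced values lay above the control values, by 0.14 ± 0.09 (SE) on average, and by 0.071 without control replicate 3. Of the inducible core subunits, Psmb10 averaged 6.82 ± 0.18 in silenced and 6.68 ± 0.17 in control arrays (SD, n = 3 each), and its difference of 0.14 was 0.055 without control replicate 1 and 0.23 without control replicate 3. Psmb8 and Psmb9 lay below the filter, with 3.35 ± 0.25 and 3.49 ± 0.13 in silenced and 3.49 ± 0.20 and 3.62 ± 0.02 in control arrays.

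Nfe2l1, the transcription factor that raises proteasome subunits, differed by 0.085 ± 0.168 (SE). It read 9.61, 10.00 and 10.15 in silenced arrays against 9.57, 9.99 and 9.94 in control arrays, with both arrays numbered 1 below the other 4. Its sign turned without control replicate 1 (-0.046) and without silenced replicate 3 (-0.028), and it was 0.24 without silenced replicate 1. Ngly1, which deglycosylates Nfe2l1 and so takes part in its activation, differed by -0.16 ± 0.13 (SE), with values from -0.27 without control replicate 1 to -0.071 without control replicate 3. The segregase gene Vcp and its cofactor gene Nploc4 differed by 0.080 ± 0.082 (SE) and 0.14 ± 0.09 (SE), and both were higher in all 3 pairs. The difference of Vcp was 0.031 without control replicate 2 and 0.13 without control replicate 1. Of the other genes named by the smallest p of their class, Txnl1, a thioredoxin-like partner of the regulatory particle, differed by -0.16 ± 0.13 (SE), the deubiquitinase gene Uchl5 by -0.047 ± 0.086 (SE), and Uba6, an enzyme that activates ubiquitin, by -0.044 ± 0.107 (SE). The zinc finger genes Zfand5 and Zfand2a differed by 0.11 ± 0.10 (SE) and 0.083 ± 0.088 (SE). Leaving out 1 array gave Txnl1 differences from -0.27 (without control replicate 2) to -0.071 (without silenced replicate 2) and Zfand5 differences from 0.051 (without silenced replicate 3) to 0.21 (without silenced replicate 1). For Zfand2a they ran from 0.038 (without control replicate 2) to 0.14 (without silenced replicate 2). The sign turned for Uchl5 without silenced replicate 3 (0.013) and for Uba6 without control replicate 1 (0.023).

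**Figure D4:**
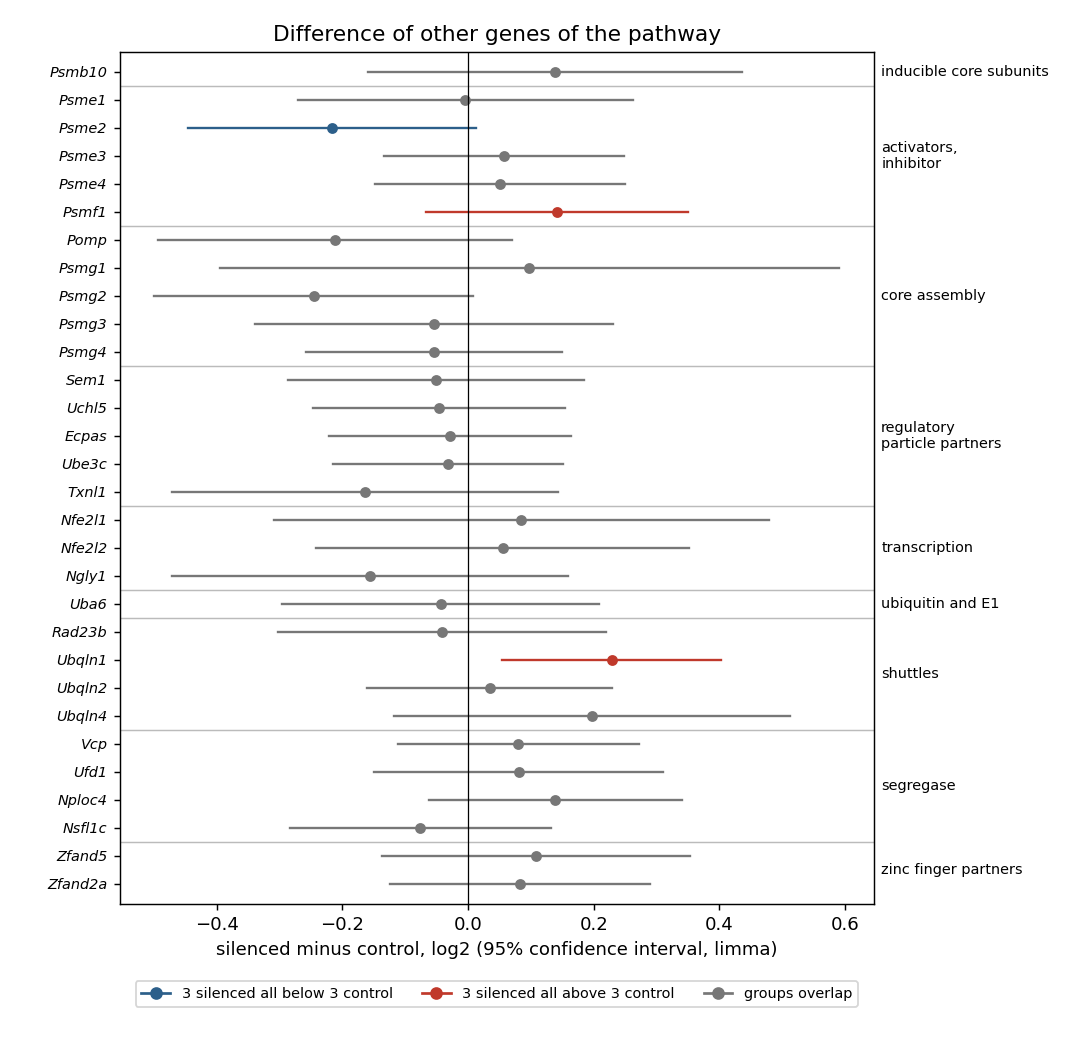
Difference of 30 other genes of the ubiquitin and proteasome pathway between silenced and control arrays in log2, with limma's 95% confidence interval, ordered by class. The interval of Ubqln1 (0.054 to 0.40) is the only one that leaves out 0, in a list with 15 lower and 15 higher means.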

How the data were processed

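The authors deposited log2 expression values for 35556 probe sets, made with RMA per the submitters' processing notes (version and software: not given in the sources used here). This method corrects background, equalizes arrays and summarizes probes, and can understate differences of dim genes. The deposited values were used unchanged. The platform annotation names 1 gene for 21218 probe sets and several for 1881. The single-gene row with the highest mean was kept per gene (18820 genes), and genes above the 40th percentile were tested (11292). All 36 members matched RefSeq by Entrez identifier.

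R 4.3.3 with limma 3.58.1 compared silenced with control arrays. The linear model had no covariate and held the 6 arrays, tests were moderated (eBayes) and 2-sided, and p-values were adjusted by Benjamini and Hochberg over all tested genes, with a threshold of 0.05. SEs are limma's moderated ones. The scripts were tested on simulated data. Members and lists were chosen with earlier results of these data known. Named with values were members with an unadjusted p under 0.05 with or without the block, those with nonoverlapping groups, the smallest p of each class and the catalytic subunits. From the list of 42 the 2 smallest p of each class and any under 0.05 were named. Further members are given by their differences.

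Arrays with the same replicate number deviated together from their groups' means (correlations of 0.55, 0.35 and 0.42). Pairs of an array numbered 1 with a differently numbered one had correlations of -0.44 to -0.30. Silenced replicate 3 with control replicate 2 (0.19) and silenced replicate 2 with control replicate 3 (0.063) were weakly positive. Numbers 2 and 3 were thus set apart less than number 1. Same-numbered arrays were treated as pairs in the differences within numbers, in the block fit and where both arrays of a number were left out. This rests on these data, since no label states it. The main fit, with its SEs, intervals and p-values, was not paired. With the block the SE of Nfe2l1 was 0.079 (0.168 without it), whereas that of Psmb5 was 0.106 (0.102 without it). Alternatives covered the block, normalization, filters, rows, the variance model and arrays left out.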

Additional observations from a re-analysis of the deposited data

How the results depend on the processing

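The counts of genes and of members past limma's adjusted threshold were 0 under all settings tried, and the smallest adjusted p with the replicate number as a block was 0.421 over all genes. The block moved the number of genes at an unadjusted p under 0.05 to 516 lower and 652 higher, against 223 and 319 without it. In this balanced design it leaves every difference unchanged, so the medians and the counts of lower genes could not change with it. Differences of the size seen here, mostly under 0.2 log2, lie near the SE of 3 arrays against 3 (0.071 to 0.13 over members). Leaving out single arrays gave core medians from -0.11 to -0.039 and regulatory particle medians from -0.056 to 0.0097. The core minus the regulatory particle median ranged from -0.084 to -0.017 and the lower core genes from 10 to 13. Without both arrays numbered 1 that difference was -0.038. Chosen after seeing the data, the fits without both arrays numbered 2 and 3 gave -0.016 and -0.017, with a core median of -0.029 in the second. Within number 1 the regulatory particle median was -0.088 and the difference 0.041. Within number 2 the core median was -0.024, the difference -0.044 and the lower core genes 7. Within number 3 the difference was -0.096. The cause was not tested.

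Some differences of single genes changed sign. With quantile normalization repeated, Psmb6 was at 0.0090 and Psmb7 at 0.0012. Without both arrays numbered 1, Psmb5 was at 0.043, Psmb6 at 0.00018, Psmb7 at 0.0063 and Psmb10 at -0.029, and without both numbered 3, Uchl5 was at 0.027 and Uba6 at 0.0029. Within number 1, Psmd2 was at -0.17, Psmc3ip at 0.098, Uchl5 at 0.0078 and Zfand5 at -0.078. Within number 2, Psmb6 was at 0.011, Psmb7 at 0.0014, Psmb10 at -0.037, Uchl5 at 0.046 and Uba6 at 0.035. Within number 3, Psmb5 was at 0.12, Psmb7 at 0.011 and Psmb10 at -0.021. Leaving out single arrays gave -0.035 to 0.015 for Psmb6, -0.017 to 0.0096 for Psmb7, -0.24 to 0.013 for Psmc3ip, -0.087 to 0.013 for Uchl5, -0.046 to 0.24 for Nfe2l1 and -0.12 to 0.023 for Uba6. The other 493 values of single genes over all settings kept their sign. Under the block, the filters and the variance model a gene's difference stays the same by design, so those signs could not turn. Averaging rows can move only genes with more than 1 row. The count of kept signs is therefore no measure of stability, and the cause of the changes was not tested.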

Other observations

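The annotation gives 6 members more than 1 row, and the rows did not always show the same difference. The files do not say which part of a gene a row reads. Whether a row also reads a processed pseudogene was not tested, so the levels and differences of these 6 genes are uncertain. A fit of all rows separately, chosen after seeing the data, held 12948 rows above the filter level, and limma's adjusted p was above 0.87 for every row named here.

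For Psmb3, the row kept in the report read lower in all silenced arrays. Its second row read 9.54, 9.47 and 9.63 in silenced arrays against 9.60, 9.64 and 9.75 in control arrays, a difference of -0.12 ± 0.08 (SE) with overlapping groups, against -0.20 ± 0.08 (SE) for the first. For Psma5, the second row read 8.71, 8.56 and 8.70 in silenced arrays against 8.84, 8.62 and 8.81 in control arrays, a difference of -0.095 ± 0.093 (SE) with overlapping groups, against -0.22 ± 0.12 (SE) for the first. For both genes the groups were apart on the first row only, and for Psma5 barely.

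Psmc1 had lower values in all silenced arrays on both rows. Its second row read 8.59, 8.56 and 8.60 in silenced arrays against 8.68, 8.65 and 8.85 in control arrays, without overlap, a difference of -0.14 ± 0.08 (SE). The second row of Psmb1 read 5.82 on average in silenced and 5.83 in control arrays, a difference of -0.0037, against -0.13 for the first. The 3 rows of Psma3 differed by -0.030, -0.043 and 0.018, and the 2 rows of Psmd2 by 0.084 and 0.046. With the rows of each gene averaged, the core median was -0.069 and the regulatory particle median -0.022, with 12 and 10 lower genes.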
